A study of Mus musculus with 6 samples.

Results

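The genes described here are the cytochrome P450 3A (Cyp3a) family of the mouse and Por, the gene of NADPH-cytochrome P450 oxidoreductase. The 9 members, Cyp3a11, Cyp3a13, Cyp3a16, Cyp3a25, Cyp3a41a, Cyp3a41b, Cyp3a44, Cyp3a59 and Por, were picked by gene symbol from a table of 23282 genes, and 5 of the 9 had enough reads to be among the 11657 genes tested. They were measured in primary hepatocytes of C57BL6/N mice, which were obtained by collagenase perfusion of the liver, left to attach for 3 h and then given recombinant IL-1β, an inflammatory cytokine, for 24 h (3 samples) or no treatment (3 samples). RNA was read from the 3′ end of each transcript by QuantSeq with single-end reads of 75 nt, and the libraries held between 9538741 and 11105408 counts. The sex, age and number of animals, the dose of IL-1β and whether samples of a group came from separate isolations are not given in the labels, so a p-value may measure technical spread only, and the design text speaks of 2 samples per group while listing 3.

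The CYP3A enzymes are haem-containing monooxygenases of the endoplasmic reticulum that oxidise many drugs, steroids and bile acids. Each catalytic cycle needs electrons from NADPH, which the flavoprotein POR hands to all microsomal P450s, in part with help from cytochrome b5. In liver, Cyp3a transcription is known to depend on the xenobiotic receptors PXR and CAR together with HNF4α, FOXA and C/EBP factors, and a loss of hepatic P450 mRNA is a familiar feature of inflammation.

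All members lie on chromosome 5 of the mm10 (GRCm38) assembly used by the table. Por stood at chr5:135689145-135735326 on the plus strand, and Cyp3a13 stood alone at chr5:137892933-137921619 on the minus strand. The other 7 genes formed a cluster, which ran from Cyp3a16 at chr5:145436309-145469723 through Cyp3a11 at chr5:145854607-145879854 to Cyp3a25 at chr5:145977194-146009617 and Cyp3a59 at chr5:146079258-146113283. In coding sequence, Cyp3a25 and Cyp3a59 were 97.5% identical and Cyp3a41a and Cyp3a41b 99.9% identical. Cyp3a11 was 95.2% identical to Cyp3a41a but only 76.4% identical to Cyp3a13 and 76.0% identical to Cyp3a25.

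The promoter windows printed here, which show how far the start sites of these genes differ, were taken from RefSeq on GRCm38.p6, from 250 bases before to 50 bases after the annotated start. Capitals mark nuclear receptor half-sites (AGGTCA or AGTTCA), an HNF4 motif (CAAAGTCCA), a C/EBP motif (TTNNGNAA) and a TATA motif (TATAAA), each searched on both strands. Cyp3a11 (chr5:145879805-145880104, minus strand) and Cyp3a13 (chr5:137921570-137921869, minus strand) are shown as the most abundant Cyp3a transcripts, Cyp3a25 (chr5:146009569-146009868, minus strand) as a less abundant one, Cyp3a41a (chr5:145720087-145720386, minus strand) as one hardly detected, and Por (chr5:135688895-135689194, plus strand) for comparison.
Cyp3a11: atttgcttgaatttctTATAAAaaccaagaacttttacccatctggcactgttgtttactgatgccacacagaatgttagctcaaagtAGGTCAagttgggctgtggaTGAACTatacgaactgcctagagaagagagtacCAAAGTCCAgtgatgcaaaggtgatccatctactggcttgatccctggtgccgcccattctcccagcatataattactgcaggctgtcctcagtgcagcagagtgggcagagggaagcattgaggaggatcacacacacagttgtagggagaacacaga
Cyp3a13: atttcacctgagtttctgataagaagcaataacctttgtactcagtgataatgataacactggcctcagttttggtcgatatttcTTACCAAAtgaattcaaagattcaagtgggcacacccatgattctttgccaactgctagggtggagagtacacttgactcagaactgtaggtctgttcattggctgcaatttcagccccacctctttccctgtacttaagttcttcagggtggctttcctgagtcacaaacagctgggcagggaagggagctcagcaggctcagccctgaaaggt
Cyp3a25: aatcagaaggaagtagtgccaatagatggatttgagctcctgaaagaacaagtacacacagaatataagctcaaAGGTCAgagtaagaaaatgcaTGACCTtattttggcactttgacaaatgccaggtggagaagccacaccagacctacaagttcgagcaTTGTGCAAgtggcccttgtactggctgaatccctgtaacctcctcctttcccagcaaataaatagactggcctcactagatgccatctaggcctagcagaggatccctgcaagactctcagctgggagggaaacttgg
Cyp3a41a: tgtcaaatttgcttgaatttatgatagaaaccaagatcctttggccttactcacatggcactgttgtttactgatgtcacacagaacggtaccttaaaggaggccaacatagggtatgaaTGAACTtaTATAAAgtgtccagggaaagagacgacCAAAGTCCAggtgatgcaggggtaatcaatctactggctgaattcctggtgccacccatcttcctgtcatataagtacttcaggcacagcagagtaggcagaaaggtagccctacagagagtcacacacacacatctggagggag
Por: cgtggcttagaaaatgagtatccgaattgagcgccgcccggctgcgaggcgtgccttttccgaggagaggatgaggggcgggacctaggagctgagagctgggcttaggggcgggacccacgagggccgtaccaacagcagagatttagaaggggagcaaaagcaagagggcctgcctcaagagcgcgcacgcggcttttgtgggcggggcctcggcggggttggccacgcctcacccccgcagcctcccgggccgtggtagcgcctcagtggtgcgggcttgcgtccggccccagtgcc

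The HNF4 motif, which 0.475% of the 32851 RefSeq promoter windows of this length hold, occurred in Cyp3a11 at positions -109 to -101 from the start. It also occurred in Cyp3a16, Cyp3a41a and Cyp3a41b, and these letters were not found in the windows of Cyp3a13, Cyp3a25, Cyp3a59, Cyp3a44 and Por. The half-site, held by 27.7% of all windows, was found on both strands in Cyp3a11, Cyp3a25 and Cyp3a59 and once in Cyp3a41a, Cyp3a41b and Cyp3a44. The C/EBP motif (40.7% of windows) was found in Cyp3a13 and Cyp3a25, and the TATA motif (13.6%) in Cyp3a11, Cyp3a16, Cyp3a41a, Cyp3a41b and Cyp3a44. The TATA letters lay at -234 to -229 in Cyp3a11, at -126 to -121 in Cyp3a16 and at -122 to -117 in Cyp3a41a, Cyp3a41b and Cyp3a44. An NF-κB motif (GGGA and TTCC parted by 2 unspecified bases, 1.47% of windows) and half-sites paired as a direct repeat with a spacer of 1, 3 or 4 bases or as an everted repeat with a spacer of 6 bases, held by between 0.00913% and 0.0822% of windows, were not found in any member. The windows of Cyp3a25 and Cyp3a59 were 95.7% identical, whereas those of Cyp3a11 and Cyp3a13 were 53.7% identical. A match describes letters in a window and is not evidence of binding. Only exact letters were searched, so a missing match does not show that a receptor site is absent.

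After IL-1β, the mRNAs of Cyp3a11 and Cyp3a13, the 2 Cyp3a genes with the most reads, were lower than in untreated hepatocytes, by 32.1% and 28.6%, while the mRNA of their electron donor Por was at nearly the same level in both groups. Of the 5 members tested, 2 were lower and 0 were higher at an adjusted p under 0.05, against 6.44% of all tested genes that were lower and 6.97% that were higher. The counts of members were also 2 and 0 by DESeq2, and 0 members were higher at an unadjusted p under 0.05 in edgeR. Complete separation, with all IL-1β samples under all controls, was seen for the same 2 members and for 14.2% of all tested genes. In bulk RNA, fewer cells of a type and less RNA per cell cannot be told apart.

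**Figure D1:**
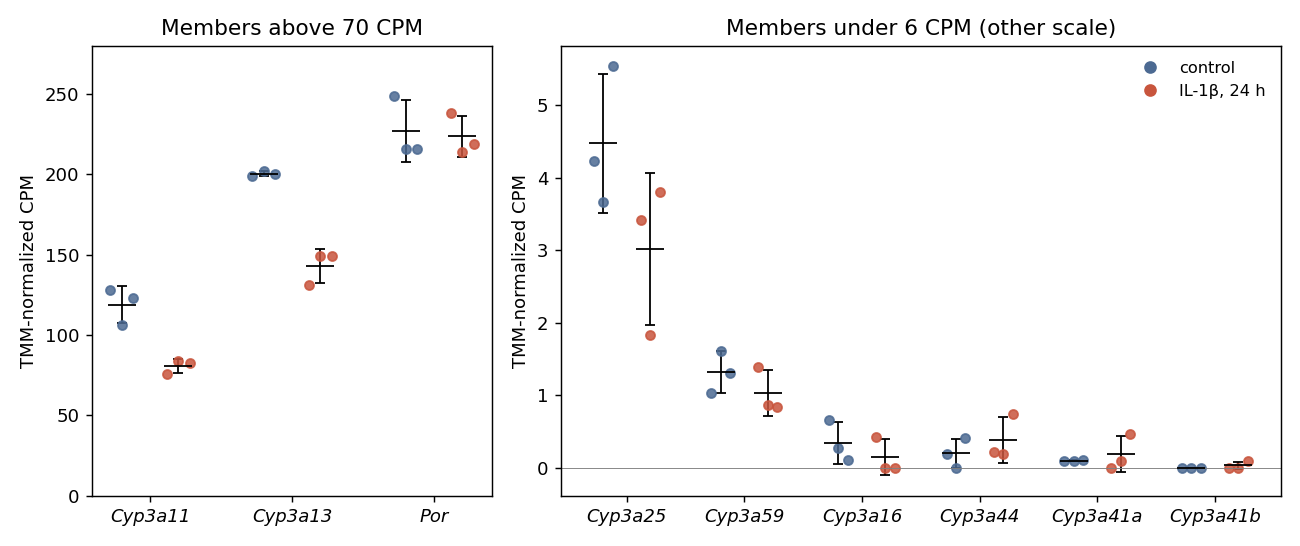
TMM-normalized counts per 1000000 (CPM) of the 9 members in each library, with the group mean and SD (n = 3) as black bars. Left, Cyp3a11 and Cyp3a13 show no overlap between control (blue) and IL-1β (red), whereas Por overlaps. Right, on a smaller scale, the other 6 members overlap between groups.

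Cyp3a11 encodes the main drug-oxidising CYP3A enzyme of adult mouse liver and is the classical target of PXR. It stood at 128, 106 and 123 CPM (counts per 1000000 after TMM scaling) in the controls and at 75.8, 83.7 and 82.6 CPM after IL-1β. Every IL-1β sample lay under the lowest control, and the controls varied more among themselves than the treated samples. The group means were 119 ± 11.3 and 80.7 ± 4.28 CPM (SD, n = 3), and the fitted log2 fold change was -0.56 (SE 0.084, 95% interval -0.73 to -0.38, adjusted p = 2.5e-05 by edgeR's quasi-likelihood test with Benjamini-Hochberg adjustment). The reads behind this value numbered 3766 in the controls and 2469 after IL-1β.

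Cyp3a13, a member that is also expressed in the intestine, stood at 199, 202 and 200 CPM in the controls and at 131, 149 and 149 CPM after IL-1β. The controls were almost level, and IL-1β sample 1 was the lowest of the 6, as it also was for Cyp3a11. The means were 200 ± 1.76 and 143 ± 10.6 CPM (SD, n = 3), and the fitted log2 fold change was -0.49 (SE 0.072, 95% interval -0.63 to -0.34, adjusted p = 1.9e-05, edgeR). Neither decrease reached 1.5-fold.

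Cyp3a25 and Cyp3a59 are close copies of each other in the cluster. Cyp3a25 stood at 4.23, 3.67 and 5.54 CPM in the controls and at 3.42, 1.83 and 3.81 CPM after IL-1β. The groups overlapped, since IL-1β sample 3 lay above control sample 2. The log2 fold change was -0.56 with a 95% interval of -1.27 to 0.14 (adjusted p = 0.344, edgeR), from 141 control and 92 IL-1β counts. It ranged from -0.30 without IL-1β sample 2 to -0.77 without IL-1β sample 3. Cyp3a59 had 11, 18 and 13 counts in the controls and 13, 9 and 9 counts after IL-1β. Its log2 fold change was -0.37 (95% interval -1.42 to 0.69, adjusted p = 0.746, edgeR), an interval that holds both the value of Cyp3a11 and no change, so a difference was not detectable at this depth. Leaving out 1 library moved it from -0.19 (without control sample 2) to -0.62 (without IL-1β sample 1). Within the last 500 nt of the annotated transcript, where QuantSeq reads fall, no stretch of 75 nt was shared between either gene and another gene.

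The remaining genes were at or near the limit of detection, which at 3 counts is 0.269 to 0.321 CPM for counting error alone. Cyp3a16, a form known from fetal and young liver, had 7, 3 and 1 counts in the controls and 4, 0 and 0 counts after IL-1β. Cyp3a44, known as a female-predominant form, had 2, 0 and 4 counts in the controls and 2, 2 and 8 counts after IL-1β. The groups overlapped for both genes, and neither was tested.

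Cyp3a41a and Cyp3a41b, a further pair known from female liver, cannot be separated by these reads. All 426 stretches of 75 nt within the last 500 nt of one transcript were found in the other. In addition, the deposited interval of Cyp3a41a, chr5:145558664-145720136, spanned both copies, whereas that of Cyp3a41b, chr5:145558664-145559217, covered only 554 bases. Cyp3a41a had 1, 1 and 1 counts in the controls and 0, 1 and 5 counts after IL-1β, and Cyp3a41b had a single count, in IL-1β sample 3. Without the filter on low counts, the 4 genes gave log2 fold changes between -1.27 and 1.88 with adjusted p-values from 0.702 to 0.809 (edgeR). Sharing of 3′ reads was partial for Cyp3a16, with 6.3% of such stretches also in Cyp3a11, and for Cyp3a44, with 17.1% also in the pseudogene Cyp3a63-ps.

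The sex of the donors is not given in the labels, so sex-linked transcripts were read beside these female-predominant forms. The Y-linked Ddx3y stood at 134 to 145 CPM in all 6 libraries, and Xist, the non-coding RNA of the inactive X chromosome, stood at 0.093 to 0.855 CPM. Among 12 further female-predominant liver genes, 9 had at most 3 counts in every library, whereas Cyp2a4, a close relative of Cyp2a5, stood at 91.6 to 104 CPM. Of 8 male-predominant genes, Moxd1 had 0 counts and Elovl3 and Hsd3b5 at most 13 counts in any library. Of 6 tested male-predominant genes 3 were lower and 1 higher, with a median log2 fold change of -0.44. Among all tested genes 6.44% were lower and 6.97% higher, and among tested P450 genes 46.8% were lower. The lower male-predominant genes included the P450s Cyp2d9, which fell by 0.43, and Cyp4a12a, which fell by 0.45 (adjusted p = 0.00216 and 0.00226, edgeR). The libraries thus held Y-linked RNA throughout, and Cyp3a41a, Cyp3a41b and Cyp3a44 were near 0 in both groups.

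Por encodes the flavoprotein that supplies electrons to every microsomal P450. It stood at 249, 216 and 216 CPM in the controls and at 238, 214 and 219 CPM after IL-1β. The groups overlapped, with the highest and the lowest value of the 6 in different groups and 1 control, sample 1, apart from the other two. The means were 227 ± 18.9 and 224 ± 12.8 CPM (SD, n = 3), and the fitted log2 fold change was -0.02 (SE 0.073, 95% interval -0.17 to 0.13, adjusted p = 0.909, edgeR). In linear terms the interval runs from -11.3% to 9.27%, which does not reach the estimates of Cyp3a11 or Cyp3a13. The sign of the Por estimate turned when control sample 1 or IL-1β sample 2 was left out, at 0.048 and 0.013.

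**Figure D2:**
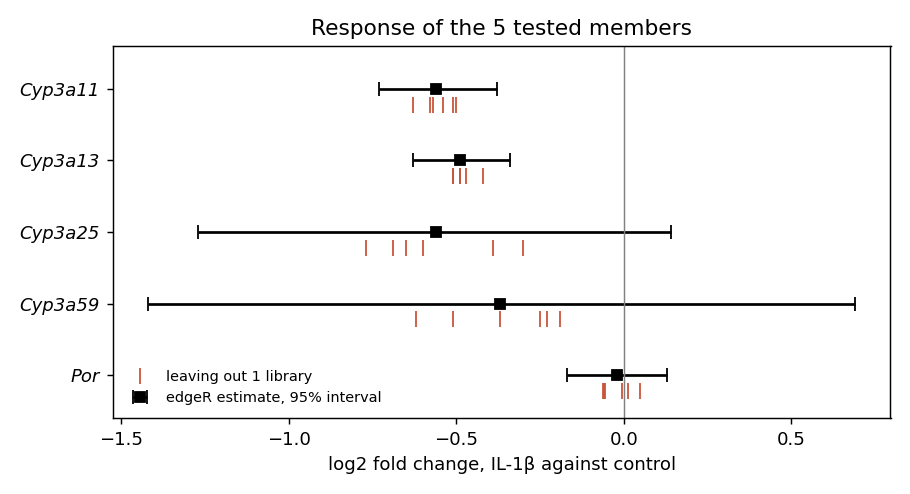
Log2 fold change of the 5 tested members, IL-1β against control, as edgeR estimate (square) with its 95% interval, and the estimates when each of the 6 libraries was left out in turn (red ticks). The ticks stay under 0 for Cyp3a11 (-0.63 to -0.50) and Cyp3a13 (-0.51 to -0.42) and lie on both sides of 0 for Por.

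To set members beside each other, levels were divided by the length of the annotated transcript. On this scale, in CPM per kilobase, Por was highest in the controls at 86.1 ± 7.17, followed by Cyp3a13 at 67.7 ± 0.595 and Cyp3a11 at 50.8 ± 4.82 (SD, n = 3). The 3 control values of each of these genes did not overlap with those of the next. Cyp3a25 followed at 2.24 ± 0.48 and Cyp3a59 at 0.662 ± 0.145 CPM per kilobase, again without overlap. Below Cyp3a59, the order of Cyp3a16, Cyp3a44, Cyp3a41a and Cyp3a41b rests on 11 or fewer counts per gene over the controls. After IL-1β the order of the 5 tested members was the same, with Por at 84.8 ± 4.84, Cyp3a13 at 48.4 ± 3.58, Cyp3a11 at 34.4 ± 1.83, Cyp3a25 at 1.51 ± 0.526 and Cyp3a59 at 0.518 ± 0.157. Because QuantSeq gives reads from transcript ends, a division by length may overcorrect, and the order of Por, Cyp3a13 and Cyp3a11 was the same in CPM.

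The pool of Cyp3a transcripts as a whole was smaller after IL-1β, and its makeup was similar. The summed level of the 8 Cyp3a genes was 332, 314 and 330 CPM in the controls and 212, 236 and 237 CPM after IL-1β. The means were 326 ± 10.1 and 228 ± 14.3 CPM (SD, n = 3), a difference of -29.8%, which is given without a test. Cyp3a13 supplied 59.8% to 64.4% of the summed Cyp3a counts in the controls and 61.7% to 63.3% after IL-1β, and the Wilson 95% intervals of single libraries were at most a few percentage points wide, the widest from 59.5% to 63.8%. Cyp3a11 supplied most of the rest, and the other 6 genes together gave 1.3% to 2.6% of the counts in any library.

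Whether members responded unequally was tested on their log2 ratio to Cyp3a11 within each library, for 4 pairs. The ratio of Cyp3a13 to Cyp3a11 counts was 1.56, 1.90 and 1.62 in the controls and 1.72, 1.78 and 1.80 after IL-1β. All treated values lay within the range of the controls, and the log2 ratio differed by 0.07 (exact permutation test, two-sided p = 0.5, adjusted over the 4 pairs p = 0.67, n = 3). With 3 samples against 3 this test cannot give a p under 0.1, so it could not have called a difference of any size at 0.05. Leaving out 1 library moved the difference in log2 ratio from 0.008 (without control sample 1) to 0.15 (without control sample 2).

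The ratio of Por to Cyp3a11 was higher in each treated library than in any control. Por gave 1.95, 2.03 and 1.76 reads for each read of Cyp3a11 in the controls and 3.14, 2.55 and 2.65 after IL-1β. The groups did not overlap, and the log2 ratio was higher by 0.53 (exact permutation test, two-sided p = 0.1, adjusted p = 0.4, n = 3), where 0.1 is the smallest p that 3 samples against 3 can give. Against the summed Cyp3a counts, Por gave 0.749, 0.687 and 0.655 reads per Cyp3a read in the controls and 1.123, 0.905 and 0.924 after IL-1β. The ratios of Cyp3a25 and Cyp3a59 to Cyp3a11 differed by 0.08 and 0.36 on the log2 scale (exact permutation tests, two-sided p = 0.8 and 0.3, adjusted p = 0.8 and 0.6, n = 3), and both overlapped between groups.

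**Figure D3:**
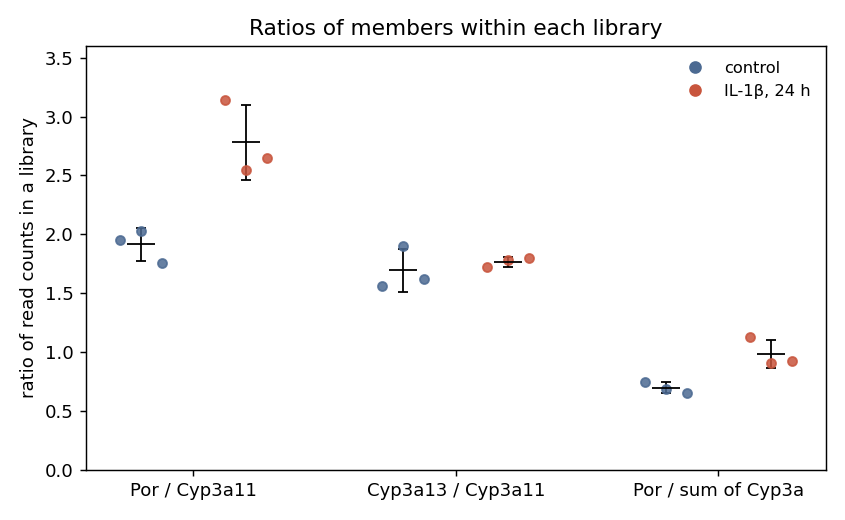
Ratio of read counts between members within each library, not corrected for transcript length, for control (blue) and IL-1β (red) samples, with group mean and SD (n = 3). Por per Cyp3a11 and Por per summed Cyp3a separate the groups, and Cyp3a13 per Cyp3a11 does not.

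Markers of hepatocytes were lower after IL-1β together with Cyp3a11 and Cyp3a13. Of 9 tested hepatocyte markers 7 were lower and 0 higher, with a median log2 fold change of -0.35. The shares among all tested genes were 6.44% lower and 6.97% higher. No marker was at 0, but Cps1, Tat and the untested Ass1 had at most 4.04 CPM in any library. The summed level of all 10 markers ranged from 21491 to 21708 CPM in the controls and from 17702 to 18645 CPM after IL-1β. For each 1000 CPM of these markers, the Cyp3a genes gave 14.6 to 15.3 CPM in the controls and 12 to 12.8 CPM after IL-1β, and the groups did not overlap. Albumin (Alb) gave 71.9% to 78.4% of the summed marker level. Without Alb, a choice made after seeing the data, the Cyp3a genes gave 54.5 to 65.2 CPM per 1000 marker CPM in the controls and 50.2 to 58.5 after IL-1β, and the groups overlapped. The only control within the IL-1β range was control sample 1, at 54.5. In that library the marker Apoa1 stood at 2951 CPM, against 1989 and 1854 CPM in the other controls. A sum without Apoa1 was not made, so the overlap may rest on that value. The log2 fold changes of the tested markers ran from -0.20 for Alb to -1.71 for Tat. Asgr1 at -0.55 and Serpina1b at -0.45 were lower by about as much as Cyp3a11 and Cyp3a13, and Cyp2e1, itself a P450, gave -0.26. Whether the markers follow hepatocyte content or respond to IL-1β themselves was not tested. Por gave 10 to 11.5 CPM per 1000 marker CPM in the controls and 11.5 to 13.4 after IL-1β, and without Alb 40.8 to 42.7 and 51.2 to 56.3. Among the other cell types, 0 of 7 tested Kupffer cell markers were called (sum 209 to 238 and 212 to 241 CPM), 1 of 6 endothelial markers was higher and 2 lower (40.4 to 46.2 and 37.5 to 42.9 CPM), and none was called of the single stellate (18.1 to 21.3 and 19.9 to 26.1 CPM) and cholangiocyte marker tested (128 to 138 and 148 to 158 CPM). Most of the Kupffer cell sum was Cd68 (172 to 204 CPM in the controls and 175 to 198 CPM after IL-1β). Clec4f, Timd4 and Vsig4 reached at most 2.42 CPM in any library. The called endothelial markers were Lyve1, higher by 0.45 on the log2 scale, and Clec4g and Kdr, with log2 fold changes of -2.87 and -1.49. The cholangiocyte sum was nearly all Sox9, with Krt19, Krt7 and Epcam at most at 0.564 CPM, and the stellate sum was mostly Dcn. The leukocyte markers summed to 1.79 to 3.95 and 3.96 to 8.27 CPM, with 1 of 2 tested higher and Cd3e and Cd79a at 0. The higher one was S100a8, at 0 CPM in the controls and at 2.03, 3.46 and 4.74 CPM after IL-1β. Ptprc was not called (log2 fold change -0.11, adjusted p = 0.918, edgeR). The part of these shifts in the Cyp3a values was not tested.

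Genes of other redox proteins, not all of which work with POR, were compared as a group. Of 11 tested electron transfer partners and diflavin reductases 2 were higher, 1 was lower and 8 were not called, with a median log2 fold change of -0.03. Over all tested genes 6.97% were higher and 6.44% lower, the shares to set beside this list and those that follow. Cyb5a, the microsomal cytochrome b5 that can pass an electron to CYP3A enzymes, stood at 271 ± 20.2 and 286 ± 24.7 CPM (SD, n = 3) and like Por was not called (log2 fold change 0.07, adjusted p = 0.623, edgeR). Cyb5r3, the NADH-dependent reductase of cytochrome b5, fell by 0.48 on the log2 scale (214, 181 and 173 CPM against 137, 121 and 150 CPM, adjusted p = 2.5e-04). The haem-binding membrane protein gene Pgrmc1 gave a value of -0.13 (adjusted p = 0.192). Cyb5b, of the outer mitochondrial membrane, and Cyb5r1 were higher by 0.25 and 0.33 (adjusted p = 0.025 and 0.0161), calls that were both lost without control sample 1 or IL-1β sample 3 (that of Cyb5b also without IL-1β sample 1 and under total-count scaling), and Mtrr and Fdxr were not called.

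Haem, the prosthetic group of all P450s, is made by a pathway of which 8 genes were tested. Of these 1 was higher and 0 were lower, with a median log2 fold change of 0.02. The one called was Alas1, the rate-limiting enzyme of the liver pathway and itself a PXR and CAR target, at 54.5, 60.5 and 70.1 CPM in the controls and 84.9, 81.4 and 86.8 CPM after IL-1β. It rose by 0.45 on the log2 scale (SE 0.093, adjusted p = 0.00113, edgeR), opposite in direction to Cyp3a11. Fech, Cpox, Alad and Uros gave values from -0.24 to 0.25 and were not called.

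Enzymes outside drug metabolism that also take electrons from POR were mixed. Of 8 tested, 2 were higher and 1 lower, with a median log2 fold change of -0.03. Cyp7b1, an oxysterol hydroxylase, rose by 0.84 (31.8, 45 and 38 CPM against 69.2, 66.5 and 70.5 CPM, adjusted p = 2.3e-06). Sqle, the squalene epoxidase of cholesterol synthesis, was higher by 0.29 (adjusted p = 0.0422), a call lost under upper-quartile or total-count scaling, without the filter on low counts and when any library other than control sample 1 was left out. Hmox1, the inducible haem oxygenase, was lower by 0.29 (log2 fold change -0.29, adjusted p = 0.0258), a call lost without control sample 1, IL-1β sample 1 or IL-1β sample 2. Cyp4a10, a fatty acid hydroxylase, gave -0.44 (adjusted p = 0.273).

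Among the transcription factors and cofactors known to act on Cyp3a genes, 27 were tested, of which 4 were higher and 5 lower, with a median log2 fold change of -0.09. Without control sample 1, IL-1β sample 2 or IL-1β sample 3, 3 in place of 5 were lower. Nr1i2, which encodes PXR, stood at 10.2, 8.68 and 9.47 CPM in the controls and at 7.48, 3.94 and 5.3 CPM after IL-1β. The groups did not overlap, and the log2 fold change was -0.77 (SE 0.24, adjusted p = 0.0331, edgeR). This call was lost, with adjusted p-values from 0.0656 to 0.187, when control sample 1 or 3 or IL-1β sample 2 or 3 was left out. Nr1i3, which encodes CAR, had 0 to 0.641 CPM in the 6 libraries and was not tested, and its classical target Cyp2b10 reached at most 0.448 CPM.

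Hnf4a, the gene of the hepatocyte factor whose motif stands in the Cyp3a11 window, had 84.6, 91.2 and 87.2 CPM in the controls and 41.7, 43.8 and 42.6 CPM after IL-1β. It fell by 1.04 on the log2 scale (SE 0.087, adjusted p = 1.6e-09, edgeR). Foxa3 fell by 0.99 (adjusted p = 7.1e-08), whereas its relatives Foxa2 (log2 fold change -0.14, adjusted p = 0.313) and Foxa1 (-0.37, adjusted p = 0.348) were not called. Cebpb, a C/EBP factor of the acute phase response, rose by 0.74 (adjusted p = 1.4e-05), and Nfe2l2, which encodes the oxidative stress factor NRF2, rose by 0.47 (adjusted p = 8.4e-06). Rxra, the partner of PXR and CAR, stood at 65.9 ± 5.1 and 65.2 ± 5.06 CPM (SD, n = 3), with a log2 fold change of -0.01 (adjusted p = 0.955) whose sign turned with control sample 2 or IL-1β sample 1 left out. Higher and lower calls thus stood side by side in this list, and their part in the Cyp3a values was not tested.

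**Figure D4:**
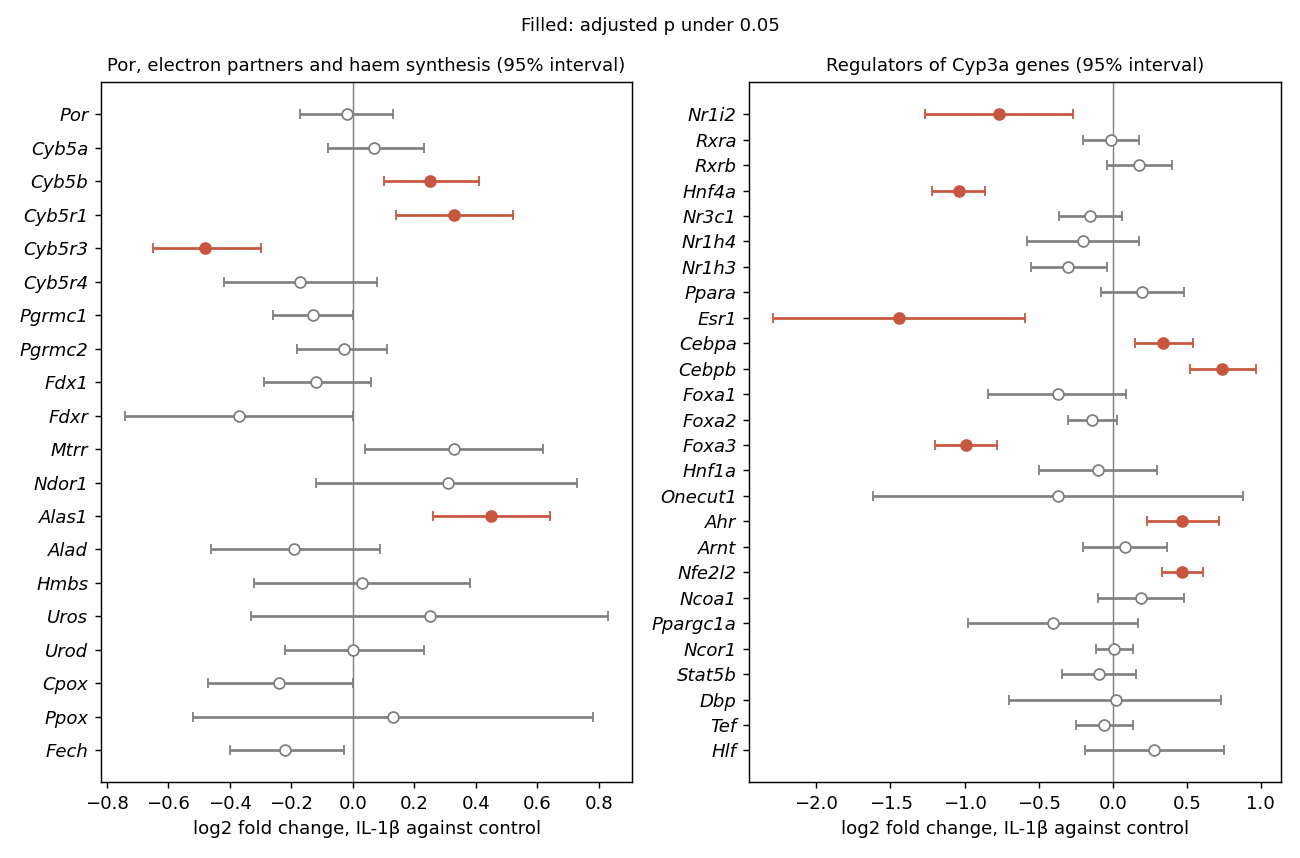
Log2 fold change with 95% interval (edgeR, IL-1β against control) of Por with all tested electron transfer partners and haem synthesis genes (left, 20 genes) and of tested regulators of Cyp3a genes (right, 26 genes). Filled points have an adjusted p under 0.05, and Por and Cyb5a lie near 0 beside lower Cyb5r3 and higher Alas1.

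Genes outside Cyp3a that are known targets of PXR and CAR did not move as one. Of 18 tested, 6 were lower and 3 higher, with a median log2 fold change of -0.19. Aldh1a1 and Aldh1a7, retinaldehyde and aldehyde dehydrogenases, fell by 2.34 and 1.89 on the log2 scale (adjusted p = 5.1e-15 and 1.2e-10), further than any Cyp3a member. Gstm3, a glutathione S-transferase, fell by 1.87 (adjusted p = 5.3e-08), whereas its relative Gstm2 rose by 0.76 (adjusted p = 4.5e-06).

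The decreases of Cyp3a11 and Cyp3a13 were then set among those of other P450 genes. The set left out Cyp51, whose symbol has no letter after the number and which was not called (log2 fold change 0.03, adjusted p = 0.899, edgeR). Of 99 genes with a symbol of the P450 pattern, 47 were tested, of which 22 (46.8%) were lower and 1 (2.13%) was higher, with a median log2 fold change of -0.44, beside -0.00 over all tested genes. Outside Cyp3a the counts were 20 lower and 1 higher of 43, with a median of -0.43, and within Cyp3a 2 lower and 0 higher of 4, with a median of -0.52. By subfamily, 8 of 10 Cyp2c, 4 of 7 Cyp2d, 1 of 4 Cyp2a, 1 of 4 Cyp4a and 1 of 3 Cyp4f genes were lower, and none was higher. Cyp1a2, the caffeine-oxidising P450 of the liver, fell by 1.49 (adjusted p = 2.9e-13), and Cyp2c70, which makes muricholic acids, fell by 1.38 (adjusted p = 2.0e-07). Cyp2c68 fell by 1.05 (adjusted p = 1.3e-04) and Cyp2j5, an arachidonic acid epoxygenase, by 1.01 (adjusted p = 4.8e-07). Members of the Cyp2c subfamily are close copies, and how reads that match several of them were counted is not given in the sources used here.

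**Figure D5:**
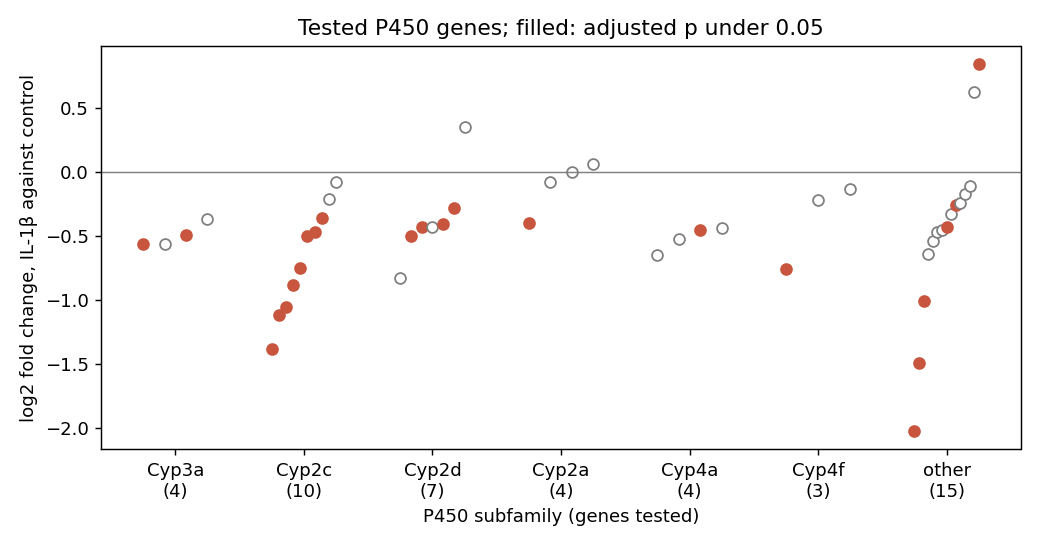
Log2 fold change (edgeR, IL-1β against control) of 47 tested P450 genes (Cyp51 is not included), grouped by subfamily with the number tested in brackets. Subfamilies with under 3 tested genes are pooled as other. Filled points have an adjusted p under 0.05. The 4 Cyp3a genes lie between -0.56 and -0.37, within the range of Cyp2c (-1.38 to -0.08).

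The genes around the Cyp3a loci were also compared. Within 500 kb of the cluster of 7 genes, 13 genes were tested, of which 2 (Smurf1 and Cpsf4) were higher and 0 lower, with a median log2 fold change of -0.04. Cyp3a57, a further Cyp3a gene of the cluster that is not among the members, had 0 counts in all 6 libraries. Around all members, 60 neighbours within 500 kb were tested, of which 8 (13.3%) were higher and 2 (3.33%) lower. Of all tested genes 6.97% were higher and 6.44% lower. The called neighbours near Cyp3a13 included Pilra, an immunoglobulin-like receptor gene, at 2.63, 3.04 and 5.04 CPM in the controls and 28.3, 32.9 and 28.9 CPM after IL-1β (log2 fold change 3.08, adjusted p = 6.3e-12). Its relatives Pilrb1 and Pilrb2 were also higher but are close copies that may share reads. Orai2, a calcium channel subunit gene near Por, was higher by 1.88 (adjusted p = 0.00133). The calls of Pop7, Tsc22d4, Azgp1, Gal3st4 and Smurf1 were each lost when at least 1 library was left out, and that of Tsc22d4 also by DESeq2 (adjusted p = 0.055). The call of Cpsf4 was lost whichever library was left out, and also by DESeq2 (adjusted p = 0.0614), by limma, under upper-quartile or total-count scaling, without the filter and with the replicate block.

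The genes whose log2(CPM + 1) followed Cyp3a11 most closely over the 6 samples, of 7968 genes with a mean of at least 10 CPM, included Ugdh, Kat6a, Mug1 and Cfi, with Pearson's r from 0.987 to 0.996. Ugdh and Cfi were called lower (log2 fold changes -0.55 and -0.53), whereas Kat6a and Mug1 (-0.20 and -0.14) were not called. Cyp3a13 came at rank 139 with r = 0.948. The genes that followed Por most closely were Rab5c, Cdadc1, Zfp65, Maged2 and Pip5k1c, with r from 0.990 to 0.993, and none of these 5 was called between the groups. The 6 points share library depth and, for Cyp3a11, the difference between the groups, so these values are a description.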

How the data were processed

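The authors prepared QuantSeq 3′ libraries, aligned reads with Bowtie2 and deposited raw read counts for 23282 genes, beside log2 normalized values, group averages, a fold change and a p-value of their own, none of which were used here. Build names (mm10, GRCm38) and tool names (Bowtie2, edgeR) come from the submitters' processing notes. The counting tool and the treatment of reads matching several genes are not given in the sources used here. The ribosomal precursor Rn45s took 11.7% to 14.2% of counts.

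Counts were filtered with filterByExpr and scaled by TMM, and groups were compared without covariates by the quasi-likelihood test of edgeR 4.0.16 in R 4.3.3, with Benjamini-Hochberg adjustment over 11657 genes. Called means an adjusted p under 0.05. The fit was tested on simulated data. CPM are counts per 1000000 of TMM-scaled library size. Log2 ratios between members used CPM + 1. Exact permutation tests used scipy 1.17.1 in Python 3.11.15. Intervals of shares are Wilson 95% intervals and, like the limit of 3 counts, cover counting error only. Promoters came from RefSeq (GRCm38.p6), and transcript lengths and coding sequences from the GENCODE annotation of GRCm38.

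Members and lists were chosen with earlier results of these data known. Genes named are the members, Nr1i2, Nr1i3, Rxra, Hnf4a, Cyb5a, Cyb5r3, Pgrmc1 and Alas1, at most 4 further genes per list by adjusted p, the largest P450 changes at 10 CPM or more, called neighbours within 500 kb, and the 5 genes most like Cyp3a11 and Por. A few of these are left out of the text and figures. Cyp2b10, Cyp3a57, Cyp51, Elovl3, Foxa1, Foxa2, Hsd3b5, Moxd1 and the cell type markers were named after their values were seen. Of Xist and Ddx3y levels only are given. Alternatives were DESeq2 1.42.0, its size factors, upper-quartile and total-count scaling, other filters and thresholds, limma 3.58.1 on log2(CPM + 1), the replicate number as a block and leaving out each library. Omitting Rn45s, and Alb from the hepatocyte markers, was added after seeing the data.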

Additional observations from a re-analysis of the deposited data

How the results depend on the processing

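Cyp3a11 and Cyp3a13 kept their direction and their call under all 15 alternatives run for each, with log2 fold changes of -0.63 to -0.50 and -0.51 to -0.42 when 1 library was left out and adjusted p-values of at most 0.0011 and 9.6e-04. With a fold change over 1.5 required as well, 0 members were lower and 769 genes were called, and at an adjusted p under 0.01 there were 996, against 1563. Leaving out 1 library gave 1131 to 1596 calls. Por ranged from -0.063 to 0.048 when 1 library was left out and was never called. Rxra ranged from -0.059 to 0.056 and was positive without control replicate 2 (0.056) or IL-1β replicate 1 (0.051). The log2 ratio of Cyp3a25 to Cyp3a11 turned to -0.042 with a pseudocount of 0.1 CPM, and it ranged from -0.050 to 0.34 when 1 library was left out. Total-count scaling shifted the median of all genes to -0.06 and upper-quartile scaling to -0.03, and the share of calls that were higher was 39.6% and 45.3%, against 52.0%, while Cyp3a11 gave -0.61 and -0.59. With the replicate block, 1671 genes were called, Cyp3a11 gave -0.56, Cyp3a13 -0.49 and Por -0.020. Deviations of samples with the same replicate number correlated by 0.08, 0.03 and -0.00, so the numbers were not taken as pairs. Without Rn45s, 1559 genes were called. Depth limits Cyp3a25 and Cyp3a59, whose intervals hold 0, and the 4 untested members.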
